A study of Mus musculus with 4 samples.

Results

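A set of 10 genes of the neuronal microtubule cytoskeleton and the growth cone was followed in embryonic mouse eye tissue labelled as null or wild type for Anp32b. They were taken by symbol from the deposited tables, and all 10 were found among the 18702 genes listed: the beta-tubulin genes Tubb3, Tubb2a and Tubb2b, the microtubule-binding protein genes Map2, Mapt, Map1b and Dcx, the stathmin genes Stmn3 and Stmn4, and the growth cone gene Gap43. The 4 libraries were made from total RNA of eye tissue of embryos of strain C57BL/6, 2 labelled KO from Anp32b-/- embryos, called knockout after that label, and 2 labelled WT from Anp32b+/+ embryos. Anp32b encodes an acidic nuclear phosphoprotein that binds histones, and the title of the series links its loss to Pax6 and to the forming eye. What allele makes the null, the embryonic stage, the sex and how many embryos were pooled are unstated in the labels. Since separate embryos are not stated either, p-values reflect just how far these samples spread, which may be technical.

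Microtubules are hollow polymers of alpha- and beta-tubulin that fill axons and dendrites. Several beta-tubulin genes encode nearly the same protein and differ mainly at the acidic carboxyl end, where other proteins bind. Microtubule-associated proteins hold the polymer in bundles, stathmins bind free tubulin and keep it out of the polymer, and GAP43 is a membrane-bound protein of the advancing axon tip. In the embryonic retina the ganglion cells are the first neurons to grow axons, and genes of this kind are widely used as markers of young neurons, in the retina and in every other part of the nervous system.

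The 3 beta-tubulin genes are shown at their coding ends because the likeness of a pair of them bears on how their reads can be told apart. The last 60 coding bases, stop codon included, are read in the direction of the gene from the GENCODE transcripts of GRCm38, and lie in exon 4 of each gene. The stretch of Tubb2a is at chr13:34074468-34074527 on the minus strand, that of Tubb2b at chr13:34127471-34127530 on the minus strand, and that of Tubb3 at chr8:123421623-123421682 on the plus strand. Capitals mark the bases at which Tubb2a and Tubb2b differ from each other.
Tubb2a: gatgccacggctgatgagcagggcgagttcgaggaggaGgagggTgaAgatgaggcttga
Tubb2b: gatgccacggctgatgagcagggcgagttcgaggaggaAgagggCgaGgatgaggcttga
Tubb3: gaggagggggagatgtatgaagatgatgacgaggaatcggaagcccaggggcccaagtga
Tubb2a and Tubb2b differed at 3 of these 60 bases and at 47 of the 1338 bases of the whole coding sequence, so that 96.5% were identical, with an unbroken identical run of 551 bases. Tubb3 ended differently, and over its first 1290 coding bases it differed from Tubb2a at 194 and from Tubb2b at 193. Of all windows of 100 bases in the longest transcript, 36.9% of those of Tubb2a and 27.7% of those of Tubb2b also occurred in another annotated transcript, most of them in each other. None of the windows of the other 8 genes did. Neither the read length nor the way shared reads were divided is stated in the labels, so the separate values of Tubb2a and Tubb2b are uncertain and their sum is less so.

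The values are FPKM as deposited, that is fragments scaled to transcript length and to the total of the library. The spacing of low values put the depth, as an estimate, at 17900000 to 18320000 fragments per library. Differences are knockout minus wild type on the scale of log2(FPKM + 1), tested with limma over 13887 genes (mean FPKM of 1 or more), and called at a Benjamini-Hochberg adjusted p under 0.05. Of all genes tested, 54.6% were called, 33.5% higher and 21.1% lower in the knockout. Anp32b itself was lower in both knockout libraries, at 94.53 and 92.67 FPKM, against 163.18 and 179.12 FPKM in the wild type (log2 fold change −0.86, SE 0.05, limma adjusted p = 1.11e-05). Its transcript was thus not absent: 54.7% of the wild-type level remained in libraries labelled KO. By its mean over all 4 libraries, wild type included, Anp32b stood at the 97.8th percentile of all listed genes. Which part of the gene is deleted is unstated, so a whole-gene value does not show whether that part is missing. Pax6, the eye regulator in the title of the series, stood at 107.76 and 110.97 FPKM in the knockout and at 160.94 and 158.43 FPKM in the wild type (−0.54, limma adjusted p = 1.28e-05). Crystallins took 1.43% of the FPKM sum in each knockout library, against 15.02% and 14.88% in the wild-type libraries, and the choice of scaling moved all other genes. The called genes were 61.3% higher with FPKM, 80.6% higher with the deposited TPM values, and 44.9% higher when crystallin and erythroid genes were left out of the scaling. The median log2 fold change of all genes was 0.04, 0.16 and −0.04 under these scalings in the same order.

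Of the 10 genes, 5 fell in the knockout, 1 rose and 4 did not pass the test, and the changes were modest. Stmn3 fell to 74.8% of its wild-type mean, Mapt to 77.4%, Tubb3 to 85.6% and Gap43 to 86.6%, and Stmn4 rose to 122.2%. Tubb2a by its separate value fell to 67.4%, but together with its near-copy Tubb2b it stood at 420.6 and 415.6 FPKM in the knockout, against 484.9 and 488.5 FPKM in the wild type, or 85.9%. The 6 called of 10 stand beside 54.6% called among all genes, which is a similar share, and the 5 lower of 10 beside 21.1%. The median log2 fold change of the 10 was −0.14, and both knockout values lay below both wild-type values in 8 of them and above in 1, beside 32.4% and 45.6% of all genes tested. None changed by 1 or more on the log2 scale, a size that 2.35% of all genes reached and passed the test with. The summed level of the 10 was 919.4 and 916.0 FPKM in the knockout libraries, against 1040.7 and 1061.4 FPKM in the wild-type libraries (87.3%). The size of that gap depended on the scaling: as a share of the FPKM sum of the library the 10 genes took 0.216% and 0.213% in the knockout and 0.225% and 0.227% in the wild type. In whole tissue, fewer cells of a type and less RNA per cell cannot be told apart.

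**Figure D1:**
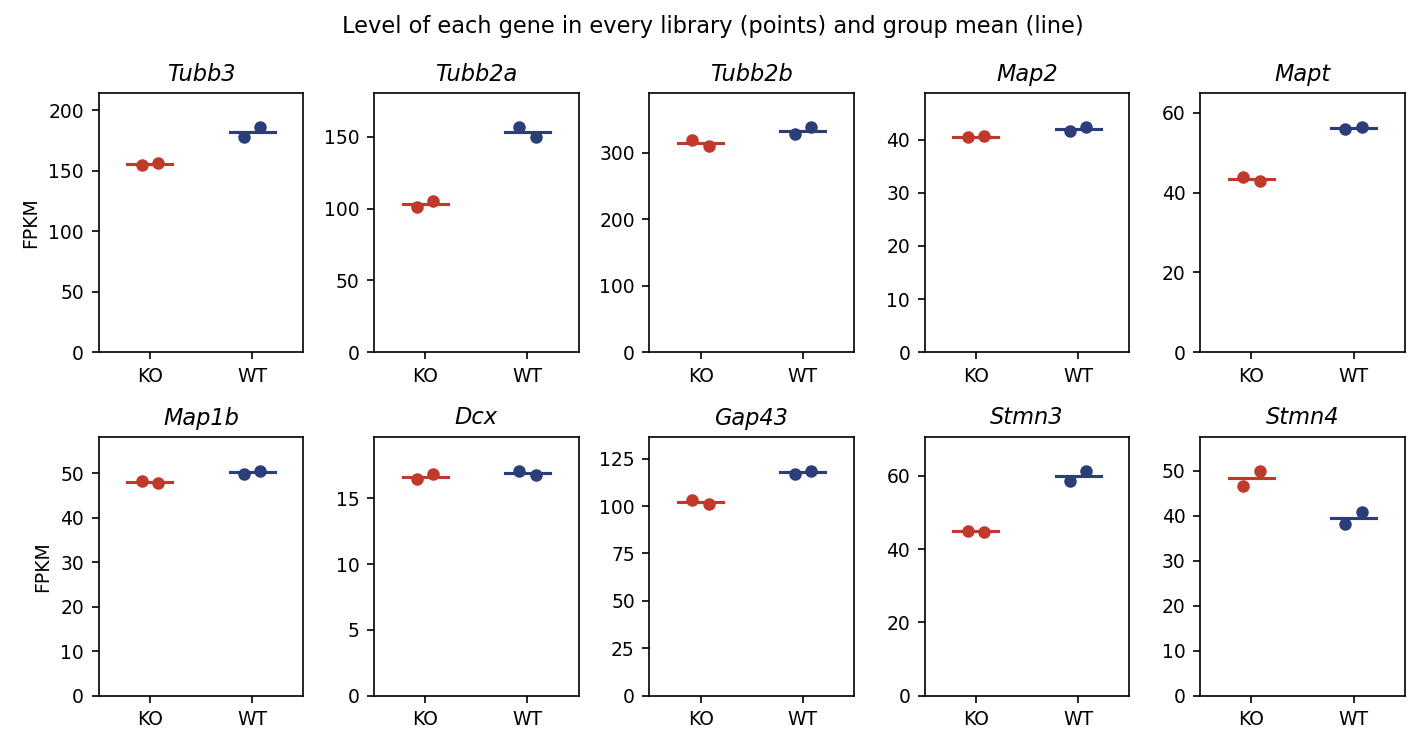
FPKM of each of the 10 genes, with a point for each library and a line at the mean of each group, knockout (KO) left of wild type (WT), on linear axes that start at 0. The knockout points lie below the wild-type points in 8 panels, above them for Stmn4, and among them for Dcx.

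Of the tubulins, Tubb3 encodes the class III beta-tubulin by which neurons are commonly identified (Entrez 22152, GRCm38 chr8:123411424-123422015, plus strand). It stood at 155.21 and 156.30 FPKM in the knockout and at 177.74 and 186.05 FPKM in the wild type. The groups did not overlap (log2 fold change −0.22, SE 0.03, limma adjusted p = 0.00111). Tubb2a, a class II beta-tubulin gene abundant in brain (Entrez 22151, chr13:34074274-34078007, minus strand), stood at 101.15 and 105.36 FPKM in the knockout and at 156.64 and 149.93 FPKM in the wild type. Its means were 103.26 ± 2.98 FPKM in the knockout and 153.28 ± 4.74 FPKM in the wild type (SD, n = 2 each). The groups did not overlap, and the fold change, if reads were divided correctly between the near-copies, was the largest of the 10 (−0.57, SE 0.04, adjusted p = 2.31e-05). Some 2961 and 3036 fragments in the knockout libraries and 4620 and 4384 in the wild-type libraries lay behind these values at the estimated depth, for which counting alone gives an SD of 1.47% to 1.84%. Tubb2b, its neighbour on the chromosome and near-copy (Entrez 73710, chr13:34126748-34130466, minus strand), known for its part in the migration of cortical neurons, was the most abundant of the 10. It stood at 319.48 and 310.21 FPKM in the knockout and at 328.26 and 338.56 FPKM in the wild type. Although its libraries did not overlap, the difference did not pass the test (−0.08, 95% interval −0.16 to −0.01, adjusted p = 0.0625, unadjusted p = 0.0357). The sum of this pair, which depends less on how reads were divided between them, was 85.9% of wild type with FPKM and 93.4% with TPM, without overlap between the groups.

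Ratios between genes within a library do not depend on the scaling of libraries. Those with Tubb2a or Tubb2b, and the shares of both, do depend on how shared reads were divided between these near-copies. The ratio of Tubb2a to Tubb2b FPKM was 0.317 and 0.340 in the knockout, against 0.477 and 0.443 in the wild type (71.3% of wild type, by the means). The ratio of Tubb3 to Tubb2b was 0.486 and 0.504 in the knockout and 0.541 and 0.550 in the wild type. Neither ratio overlapped between the groups. For these and the other ratios given here the exact two-sided permutation p was 0.333, the smallest that 2 libraries against 2 allow. As shares of the summed FPKM of 8 beta-tubulin genes, Tubb2a made up 6.92% and 7.26% in the knockout and 9.34% and 8.81% in the wild type. Tubb2b made up 21.9% and 21.4% in the knockout, against 19.6% and 19.9% in the wild type. The share of Tubb3 differed less than its replicates did, at 10.6% and 10.8% in the knockout and 10.6% and 10.9% in the wild type. Tubb3 thus held its place among the beta-tubulins while their sum was lower. That sum was 1462.3 and 1451.5 FPKM in the knockout and 1677.4 and 1702.5 FPKM in the wild type, and it depends on the scaling. Not every gene of the set fell: Tubb6 rose to 121.4% of its wild-type mean.

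Of the microtubule-binding proteins, Mapt encodes tau, which lines axonal microtubules (Entrez 17762, chr11:104231390-104332090, plus strand). It stood at 43.89 and 42.95 FPKM in the knockout and at 55.79 and 56.35 FPKM in the wild type, with no overlap (−0.36, SE 0.03, adjusted p = 9.17e-05). Map2, the counterpart of tau in dendrites and cell bodies (Entrez 17756, chr1:66175273-66442583, plus strand), stood at 40.44 and 40.62 FPKM in the knockout and at 41.58 and 42.33 FPKM in the wild type. Its values were slightly apart, by less than the test could call (−0.05, 95% interval −0.12 to 0.025, adjusted p = 0.225). The ratio of Mapt to Map2 was 1.085 and 1.057 in the knockout, against 1.342 and 1.331 in the wild type. Annotated genes lie on the opposite strand within both loci, Gm10558 at Map2 and 3 predicted genes at Mapt, and the labels do not state if counting used strand. Genes on the same strand overlap Tubb3 (Gm20388), Map1b (5330431K02Rik), Gap43 (Mir6540) and Map2 (Gm24729 and Gm25411). With windows read on both strands, no overlapping gene of either strand shared 100 bases with the longest transcript of these genes. A transcript shorter than 100 bases holds no such window, so for any of that length the comparison says nothing.

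Map1b encodes a microtubule-associated protein made early, in growing axons (Entrez 17755, chr13:99421446-99516540, minus strand). Its level was 48.23 and 47.74 FPKM in the knockout and 49.85 and 50.55 FPKM in the wild type (−0.06, 95% interval −0.14 to 0.01, adjusted p = 0.113). Dcx, which encodes doublecortin, a microtubule-binding protein of migrating young neurons (Entrez 13193, chrX:143855842-143933311, minus strand), was the least abundant of the 10. It stood at 16.49 and 16.82 FPKM in the knockout and at 17.10 and 16.80 FPKM in the wild type, the single gene in which the groups overlapped (−0.02, 95% interval −0.12 to 0.07, adjusted p = 0.634). Among the 4 microtubule-binding protein genes, Mapt alone passed the test with FPKM or TPM, while Map2 and Map1b were also called lower under 2 other scalings, and the differences between their fold changes were not tested beyond the ratios. The ratio of Mapt to Map1b was 0.910 and 0.900 in the knockout and 1.119 and 1.115 in the wild type.

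The stathmins went in opposite directions, under each scaling that was tried. Stmn3 encodes a neuronal stathmin also known as SCLIP (Entrez 20262, chr2:181306459-181314500, minus strand). It stood at 44.88 and 44.74 FPKM in the knockout and at 58.45 and 61.36 FPKM in the wild type (−0.41, SE 0.03, adjusted p = 8.79e-05). Stmn4, which encodes the neuronal stathmin RB3 (Entrez 56471, chr14:66344296-66361680, plus strand), stood at 46.64 and 49.99 FPKM in the knockout and at 38.23 and 40.84 FPKM in the wild type. It was the one gene of the 10 that was higher in both knockout libraries than in both wild-type libraries (0.28, SE 0.05, adjusted p = 0.00216). The ratio of Stmn4 to Stmn3 was 1.039 and 1.117 in the knockout, against 0.654 and 0.666 in the wild type. Of the summed FPKM of the 4 stathmin genes, Stmn4 made up 5.29% and 5.43% in the knockout and 3.35% and 3.43% in the wild type, whereas Stmn3 made up 5.09% and 4.86% in the knockout and 5.12% and 5.15% in the wild type. The relatives fell beside Stmn3: Stmn1, the stathmin of dividing cells and young neurons and the most abundant of the family, to 75.9% of its wild-type mean, and Stmn2, a stathmin of growing axons, to 74.9%.

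Gap43, the growth cone gene (Entrez 14432, chr16:42248442-42340651, minus strand), stood at 102.97 and 101.28 FPKM in the knockout and at 117.10 and 118.63 FPKM in the wild type. The groups did not overlap (−0.20, SE 0.03, adjusted p = 0.000878). In the knockout its level could not be told from that of Tubb2a, which was above it in the wild type.

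**Figure D2:**
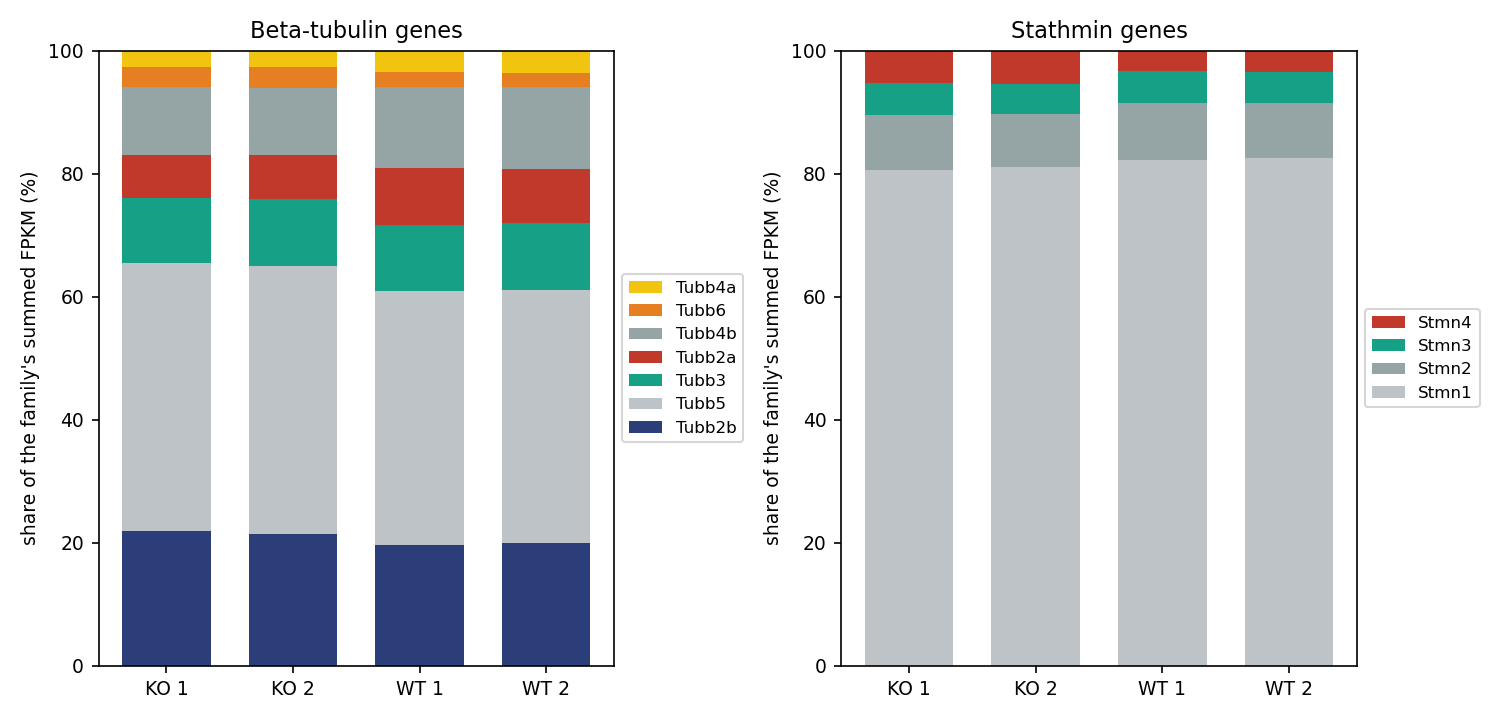
Stacked bars of the share of each gene in the summed FPKM of its family in every library, in percent, for beta-tubulin genes (left; Tubb1, at or under 0.03%, is not drawn) and for stathmin genes (right), knockout libraries (KO) left of wild-type libraries (WT). Tubb2a takes 6.92% and 7.26% in the knockout against 9.34% and 8.81% in the wild type, and Stmn4 takes 5.29% and 5.43% in the knockout against 3.35% and 3.43% in the wild type. The separate shares of the near-copies Tubb2a and Tubb2b depend on how their shared reads were divided.

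FPKM is a level per length, so the genes can be ranked. Tubb2b, Tubb3, Tubb2a and Gap43 held ranks 1 to 4 and Dcx rank 10 in both groups. Stmn4 held rank 5 in the knockout and rank 9 in the wild type, while Stmn3 held rank 7 in the knockout and rank 5 in the wild type. Mapt held rank 8 in the knockout and rank 6 in the wild type. In the knockout, Tubb2a overlapped Gap43 and Stmn4 overlapped Map1b, so these neighbours do not differ beyond their spread. In the wild type no neighbours overlapped. By their mean over the 4 libraries, Tubb2b stood above 99.2% of all listed genes and Dcx above 71.7%.

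The scaling of libraries decided the direction of 4 of the 10 genes. With the deposited TPM values Tubb2b (0.04), Map2 (0.07), Map1b (0.06) and Dcx (0.09) turned positive and still did not pass the test, as given by limma adjusted p = 0.304 for Tubb2b, 0.101 for Map2, 0.175 for Map1b and 0.101 for Dcx. When crystallin and erythroid genes were left out of the scaling, Tubb2b (−0.16), Map2 (−0.13) and Map1b (−0.14) were called lower (limma adjusted p = 0.00266, 0.0122 and 0.00668), as they were with median-of-ratios scaling. This made 8 genes lower and 1 higher of 10, beside 31.2% lower and 25.4% higher among all genes with the first of these scalings, and 25.9% lower and 28.9% higher with the second. With TPM the 5 lower and 1 higher stand beside 12.0% lower and 49.9% higher. The 6 calls made with FPKM, 5 lower and Stmn4 higher, were made with the same sign in each of the 11 other fits. Relative to the median of all genes tested, which takes the scaling out, the fold changes under FPKM were −0.60 for Tubb2a, −0.45 for Stmn3, −0.40 for Mapt, −0.26 for Tubb3, −0.24 for Gap43, −0.12 for Tubb2b, −0.10 for Map1b, −0.09 for Map2, −0.06 for Dcx and 0.24 for Stmn4. Thus 9 of the 10 were below the median gene, with FPKM, TPM and both rescalings of FPKM alike.

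**Figure D3:**
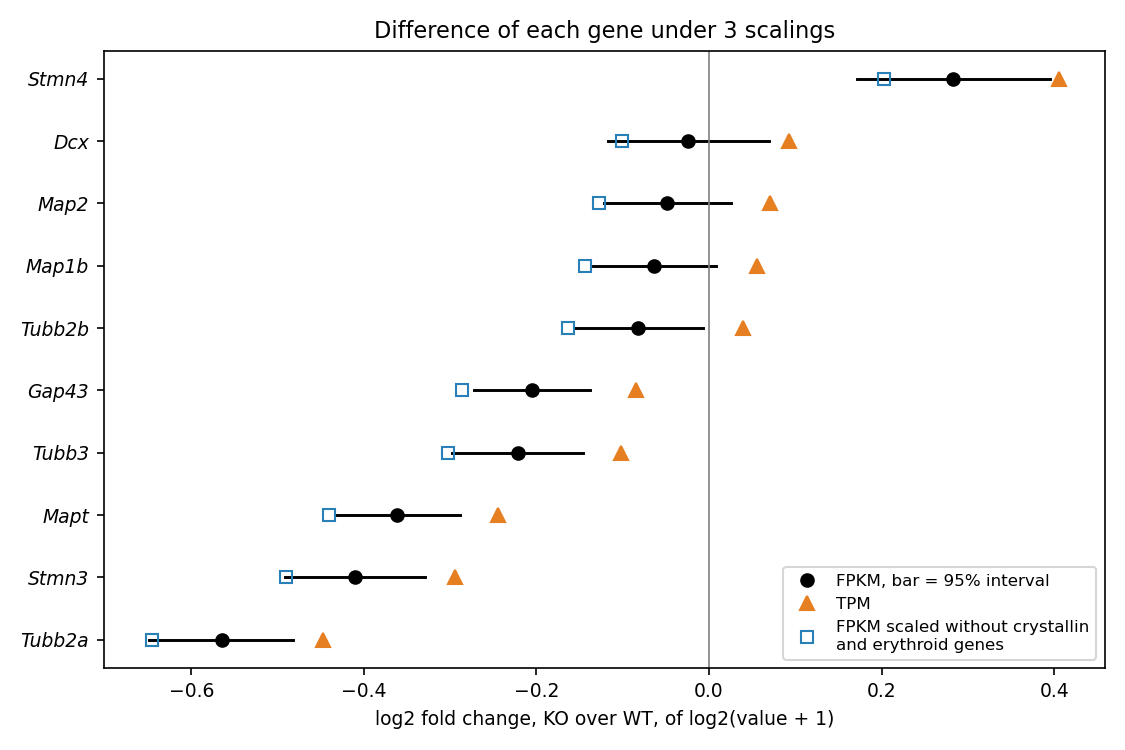
Log2 fold change of the knockout over the wild type (horizontal axis, on the scale of log2 of the value + 1) for the 10 genes. Black points with bars are the FPKM fit with its 95% interval from limma, triangles the TPM values, and open squares FPKM with crystallin and erythroid genes left out of the scaling; Tubb2b, Map1b, Map2 and Dcx lie on both sides of 0 depending on the scaling, and the other 6 genes on one side.

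Related genes gave the wider picture of the microtubule system. The counts stand beside 21.1% lower and 33.5% higher among all genes tested. Among 17 other tubulin genes, 12 were at the level tested, 6 were lower and 2 higher, with a median of −0.19. Tubb4a, another neuronal beta-tubulin gene, fell to 38.53 and 39.10 FPKM in the knockout, against 59.05 and 60.64 FPKM in the wild type (−0.61, adjusted p = 1.04e-05). Tubb4b (−0.48) fell as well, and Tubb6 (0.27) and the alpha-tubulin gene Tuba4a (0.65) rose. Among 37 listed genes of other microtubule-binding proteins, 36 were tested, 15 were lower and 5 higher, with a median of −0.11. The lowest p-values were those of Mid1 (−0.74), a microtubule-bound ubiquitin ligase gene, Dpysl4 (−0.57), a collapsin response mediator gene, Map7 (−0.55) and Stmn2 (−0.41). Of 24 tested genes of tubulin folding and modification, 5 were lower and 4 higher, with a median of −0.02. The lower share was close to that of all genes tested, and the higher share was below it. The folding factor gene Tbcb (−0.31) fell and the tubulin tyrosine ligase gene Ttl (0.21) and the gene of its counterpart in detyrosination, Vash2 (0.17), rose, as did Ttll12 (0.22). Without the filter on mean FPKM, the rise of Ttll12 did not pass the test. The rises of Ttl, Vash2 and Ttll12 did not pass it when crystallin and erythroid genes were left out of the scaling. Of these, Ttll12 also missed it without the first knockout or either wild-type library, Ttl and Vash2 without the second knockout library, and Vash2 without the first wild-type library. Leaving out any 1 library left 1 to 2 lower and 1 to 4 higher genes of tubulin folding and modification.

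Of 23 genes of axonal motors and dynein regulators, 11 were lower and 1 higher, with a median of −0.08. The kinesin genes Kif1a (−0.57), which carries synaptic vesicle precursors, Kif5a (−0.47), Kif3a (−0.33) and Kif21a (−0.31) had the lowest p-values. Of 30 other growth cone and axon genes, 20 were lower and 6 higher, with a median of −0.18. Nrcam, an adhesion molecule of axons, fell to 12.62 and 12.09 FPKM in the knockout, against 22.22 and 21.97 FPKM in the wild type (−0.79, adjusted p = 1.09e-05). The axonal genes Rtn1 (−0.60) and Uchl1 (−0.49) also fell, and Lmo7 (0.78) rose. Of 23 tested neurofilament and pan-neuronal genes, 19 were lower and 0 higher by limma, with a median of −0.35, and the number higher at an unadjusted p under 0.05 was also 0. Nefl, the light neurofilament gene, fell to 25.99 and 26.82 FPKM in the knockout, against 55.01 and 54.28 FPKM in the wild type (−1.02, adjusted p = 1.76e-06), and Syt1, the calcium sensor of synaptic vesicles, fell too (−0.82), as did Snap25 (−0.46) of the synaptic vesicle fusion machinery and Tagln3 (−0.45). All medians stand beside 0.04 for all genes tested, and the counts beside 21.1% lower and 33.5% higher. With TPM the medians of the other microtubule-binding proteins (0.01), of tubulin folding and modification (0.10) and of the motors (0.03) turned positive, those of the other tubulins (−0.08), the growth cone genes (−0.06) and the pan-neuronal genes (−0.24) stayed negative, and the median of all genes was 0.16. Relative to the median of all genes, the 6 lists lay between −0.39 and −0.05 with FPKM and the 10 genes at −0.18. Differences between the lists were not tested.

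**Figure D4:**
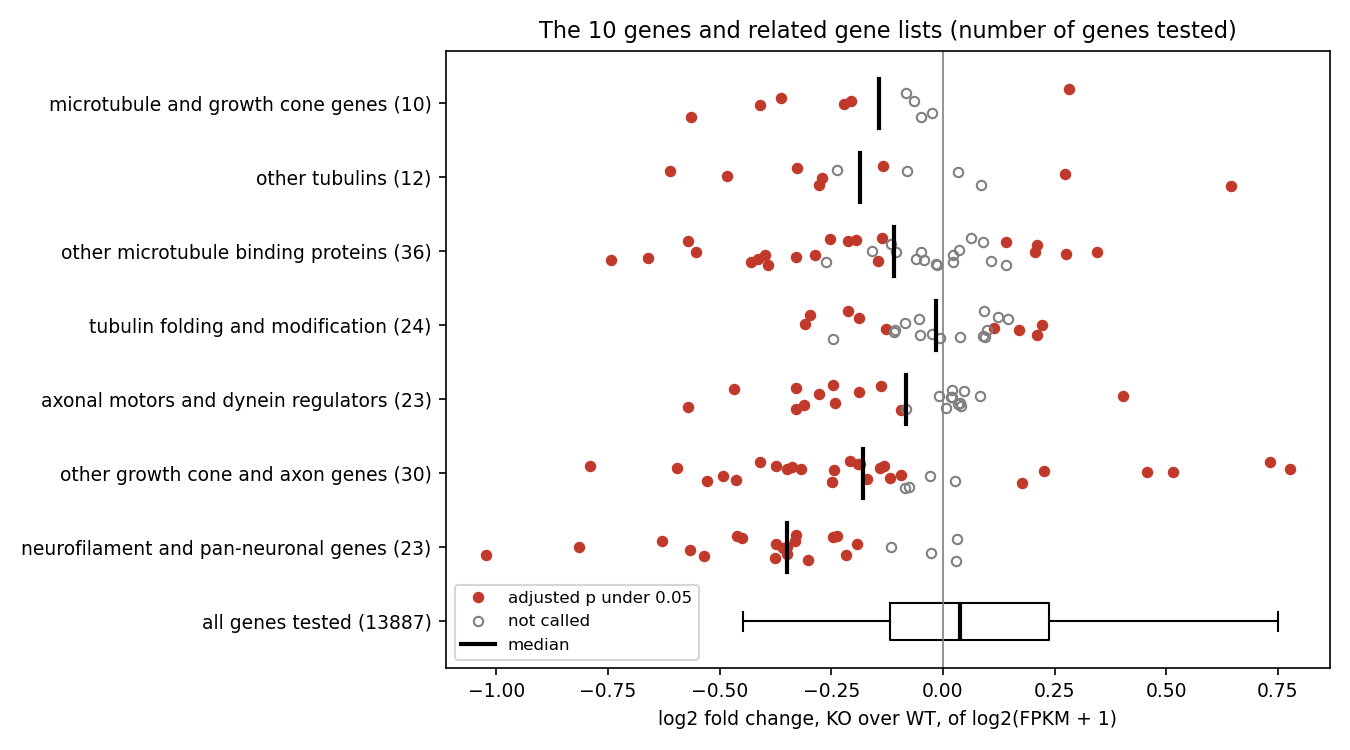
Log2 fold change of the knockout over the wild type, on the log2(FPKM + 1) scale, for the 10 genes and 6 related lists. Filled points passed the adjusted threshold of 0.05, open points did not, bars are list medians, and the box of all 13887 genes spans percentiles 25 to 75 (−0.12 to 0.24) with whiskers at percentiles 5 and 95 (−0.45 and 0.75). The 10 genes have a median of −0.14, the pan-neuronal list −0.35 and all genes 0.04.

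Markers of the cells that could supply these transcripts moved in several directions. Their counts, here and for the tissues below, stand beside 21.1% lower and 33.5% higher among all genes tested. Of 16 tested retinal ganglion cell markers, 10 were lower and 3 higher, and their summed level was 230.6 to 237.8 FPKM in the knockout and 308.4 to 312.5 FPKM in the wild type. Sncg (−1.03) and Thy1 (−0.66), both genes of ganglion cells, were the markers with the lowest p. Sncg made up most of the gap between the sums, at 45.42 and 47.09 FPKM in the knockout and 92.03 and 99.11 FPKM in the wild type. Of 13 tested amacrine and horizontal cell markers, 7 were lower and 3 higher, with summed levels of 147.4 to 150.6 FPKM in the knockout and 207.6 to 208.8 FPKM in the wild type. Calb2 fell to 38.7% of its wild-type mean and made up most of that gap, at 23.98 and 23.87 FPKM against 61.96 and 61.71 FPKM. Of 12 tested photoreceptor markers, 5 were lower and 6 higher, with summed levels of 349.7 to 350.2 FPKM in the knockout and 329.3 to 332.6 FPKM in the wild type. Those with the lowest p went in opposite directions, Opn1sw at 0.77 and Nr2e3 at −1.05. Opn1sw stood at 49.54 and 47.22 FPKM in the knockout and at 27.67 and 28.10 FPKM in the wild type. That rise was about as large as the gap between the sums, so their direction rests on Opn1sw. Retinal progenitor markers were lower in 10 and higher in 3 of 17, at 1109.0 to 1118.4 FPKM summed in the knockout and 1591.1 to 1600.6 FPKM in the wild type. The progenitor markers with the lowest p went in opposite directions, Sfrp2, a secreted modulator of Wnt signalling, at 1.13 and Ccnd1, a cyclin of the G1 phase, at −0.91. Without Ccnd1 the progenitor sum was 730.3 and 744.1 FPKM in the knockout, against 887.9 and 889.6 FPKM in the wild type. Of 11 tested forebrain neuron markers, 10 were higher, with summed levels of 42.7 to 44.3 FPKM in the knockout and 24.8 to 27.4 FPKM in the wild type. Of 12 tested Schwann cell and glial markers, 11 were higher and 1 lower, and the lower one, Fabp7, had a fold change of −1.07. The summed level with Fabp7 was 225.4 to 236.4 FPKM in the knockout and 262.2 to 270.9 FPKM in the wild type. Without Fabp7 the direction reversed, to 160.0 and 166.1 FPKM in the knockout, against 122.7 and 123.4 FPKM in the wild type.

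Peripheral neurons were looked for as well. Of 23 listed markers of peripheral sensory and autonomic neurons, 16 were below the level tested, and of the other 7 tested 3 were higher and 1 lower, with summed levels of 37.0 to 39.6 FPKM in the knockout and 33.4 to 34.6 FPKM in the wild type. Ntrk3, a neurotrophin receptor gene, rose to 8.85 and 8.86 FPKM in the knockout, against 5.39 and 5.11 FPKM in the wild type (0.66). Runx1, a transcription factor gene of sensory neurons and blood cells, rose to 2.63 and 2.56 FPKM in the knockout, against 1.14 and 1.17 FPKM in the wild type (0.74), and Ntrk2 rose as well (0.42). Tac1, the 1 lower gene, fell to 3.54 and 2.85 FPKM in the knockout, against 5.44 and 6.19 FPKM in the wild type (−0.70). Other markers were near 0: Prph, the peripherin gene, stood at 0.88 and 0.49 FPKM in the knockout and at 0.79 and 1.10 FPKM in the wild type. Scn10a, a sodium channel gene of sensory neurons, was listed at 0.00 and 0.01 FPKM in the knockout and at 0 in both wild-type libraries. No marker on these lists was at 0 in all 4 libraries. Among tissues without neurons, all 24 lens markers were lower, at 6286.4 to 6335.0 FPKM summed in the knockout and 71466.4 to 71707.8 FPKM in the wild type, and all 16 skeletal muscle markers were higher, at 4235.3 to 4333.9 FPKM in the knockout and 2046.5 to 2153.6 FPKM in the wild type. All 14 periocular mesenchyme markers were higher too, at 3770.6 to 3790.2 FPKM in the knockout and 1726.5 to 1763.1 FPKM in the wild type, and 6 of 7 tested erythroid genes were higher. The part of these cell types in the differences of the 10 genes was not tested.

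Upstream sequence was compared because some of the genes moved together and others did not. RefSeq windows of GRCm38.p6 were at hand for 6 of the 10 genes, and 3 of them lay wholly outside the GENCODE transcripts. These 3 are the 250 bases before the start of Tubb2a and Stmn3, which fell, and of Map1b, which did not pass the test. They are chr13:34078009-34078258, chr2:181314501-181314750 and chr13:99516603-99516852, all on the minus strand, and capitals mark the motifs GGGCGG and TATAAA on either strand.
Tubb2a: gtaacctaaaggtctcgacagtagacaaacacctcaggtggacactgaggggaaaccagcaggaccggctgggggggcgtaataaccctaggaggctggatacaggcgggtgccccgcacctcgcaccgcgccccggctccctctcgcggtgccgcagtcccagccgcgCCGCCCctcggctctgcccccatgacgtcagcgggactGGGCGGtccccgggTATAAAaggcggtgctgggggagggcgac
Stmn3: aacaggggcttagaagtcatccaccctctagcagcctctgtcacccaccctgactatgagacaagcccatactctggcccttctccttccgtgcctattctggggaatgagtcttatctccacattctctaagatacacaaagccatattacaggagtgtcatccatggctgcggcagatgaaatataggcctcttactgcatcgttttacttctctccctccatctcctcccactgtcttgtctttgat
Map1b: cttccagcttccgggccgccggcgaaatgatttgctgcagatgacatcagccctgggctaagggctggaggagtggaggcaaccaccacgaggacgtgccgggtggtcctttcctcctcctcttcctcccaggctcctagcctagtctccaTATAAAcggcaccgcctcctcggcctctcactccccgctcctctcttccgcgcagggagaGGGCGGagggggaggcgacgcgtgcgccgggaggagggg
Tubb2a had 2 copies of GGGCGG and 1 of TATAAA, and Map1b had 1 of each. Stmn3 had neither, and its window held 48.8% G and C, against 68.4% for Tubb2a, 66.4% for Map1b and a median of 52.4% over all windows. GGGCGG occurred in 32.7% and TATAAA in 12.4% of all 32851 windows of that length. CANNTG, the letters of an E-box, occurred once in each of the 3 windows and in 66.2% of all windows. Neither motif shown in capitals was common to Tubb2a and Stmn3, both of which fell.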

How the data were processed

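Illumina libraries were made from Trizol-extracted total RNA of eye tissue, per the labels' protocols. The authors deposited 1 table per library with FPKM values and TPM values, per the file headers. The TPM values are the FPKM values times 1 constant per library. Cufflinks, DESeq, HISAT2 and TopHat and the builds GRCm38 and GRCh38 are named, without roles or versions, in the submitters' processing notes. Annotation release, filters and use of strand: not given in the sources used here.

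The tables list 18702 genes by Entrez number and symbol, and 26 symbols shown as dates were restored from the RefSeq table. They hold no counts. At the estimated depths 50.9% to 57.6% of 337 to 351 low values per library lay within 0.15 of a whole fragment, where chance gives 30%, so counts were not recovered. Libraries of a group differed by more than counting noise (chi-square per gene 1.8 for KO and 1.9 for WT) and were kept as 2 replicates each. Values were tested as log2(FPKM + 1) for genes averaging 1 FPKM or more. The test was limma 3.58.1 under R 4.3.3, with the variance trended on level and genotype as the only term, two-sided, with Benjamini-Hochberg adjustment over all genes. Degrees of freedom were 2 residual and 4.89 prior. Fold changes on this scale are understated for low genes. The code was tested on simulated data. Alternatives were a pseudocount of 0.1, other filters, TPM, 2 rescalings, a replicate block, a log2 fold change of at least 1 and the omission of each library.

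The members, lists and tests were chosen with earlier results of these data known. Genes named from a list were those past the threshold with the lowest p, up to 4 for microtubule and axon lists and up to 2 for marker lists. Stmn1, Prph, Scn10a, Ntrk2 and Tac1 were named after their values were seen. The sum of Tubb2a and Tubb2b and the marker sums without Ccnd1 or Fabp7 were also chosen after seeing the data. Some genes that the rule names are not reported here. Positions are from GENCODE M21 (GRCm38). Python 3.11.15, numpy 2.4.6, pandas 2.3.3 and matplotlib 3.10.9 made the tables and plots.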

Additional observations from a re-analysis of the deposited data

How the results depend on the processing

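The 6 calls among the 10 genes kept their sign and threshold under every alternative other than a log2 fold change of at least 1, which left 0 lower and 0 higher of the 10 and 326 genes in all. With TPM the uncalled Tubb2b (0.039), Map2 (0.071), Map1b (0.056) and Dcx (0.093) changed sign. The 10 genes gave 8 lower when crystallin and erythroid genes were left out of the scaling, and 8 with median-of-ratios scaling.

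For the lists, TPM gave 12 higher of 36 microtubule-binding protein genes, and 1 lower and 10 higher of 24 genes of tubulin folding and modification. It gave 7 lower and 10 higher of 23 motor genes, 11 lower of 30 growth cone genes and 1 higher of 23 pan-neuronal genes. These counts stand beside 12.0% lower and 49.9% higher among all genes with TPM. Each of these higher shares was below that of all genes. For tubulin folding and modification, no filter gave 2 lower and 2 higher, median-of-ratios scaling 9 lower, and scaling that left out crystallin and erythroid genes 10 lower and 0 higher. Among all genes, no filter gave 14.8% lower and 24.4% higher, and median-of-ratios scaling 25.9% lower. Scaling that left out crystallin and erythroid genes gave 31.2% lower and 25.4% higher. A log2 fold change of at least 1 left 0 lower and 0 higher in the lists of other tubulins, other microtubule-binding proteins, folding, motors and growth cone genes, and 1 lower pan-neuronal gene, Nefl. The median of all genes moved with each scaling, and the cause of the other changes was not tested.

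Leaving out 1 library gave 5415 to 6225 genes called, 5 lower and 1 higher of the 10, and 1 to 2 lower and 1 to 4 higher genes of tubulin folding and modification, with the lone library of a group taken to vary like those of the other group. The log2 ratio of Tubb2a to Tubb2b ran from −0.54 to −0.43 and that of Stmn4 to Stmn3 from 0.66 to 0.76. The replicate numbers share no stated source, and the differences between replicates of the 2 groups correlated at 0.04 over genes. The replicate block gave 7828 genes called, against 7586 without it, and 5 lower and 1 higher of the 10.

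The depth is an estimate, and with 2 libraries a group every error rests on the spread shared over genes by the fit.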
